A study of Mus musculus with 4 samples.

Results

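Transcripts of 40 deacetylases and corepressor subunits were followed in testes of mice at postnatal day 14: the histone deacetylases other than Hdac1 and Hdac2, 6 sirtuins, and subunits of the Sin3, NuRD, CoREST and NCoR complexes. The members were chosen by gene symbol, with earlier results of these data known. All 40 symbols were found once among the 55401 rows of each table. The 4 libraries came from 2 Kctd19-/- testes (ko) and 2 Kctd19+/- testes (het), all C57BL/6J and untreated, each made from poly(A) RNA of testis. The labels name no part of Kctd19 as deleted, and the heterozygotes serve as the controls, so animals with both alleles intact are not part of the comparison. Levels are in FPKM, fragments divided by exon length and by the assigned reads of the library, so that genes of different length can be set side by side.

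Histone deacetylases remove acetyl groups from histone tails and from other proteins, and in the nucleus most of them work inside corepressor complexes that transcription factors bring to genes. Hdac3 is the catalytic subunit of the NCoR complex, while the Sin3, NuRD and CoREST complexes are built around Hdac1 and Hdac2. Kctd19 is a protein of meiotic germ cells that is known to associate with Zfp541 and with Hdac1 and Hdac2, which is the reason for reading the other deacetylases and their complexes in this comparison.

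Of the whole series, the following bears on these genes. Assigned reads numbered 19430364 and 14573566 in the ko libraries and 14638658 and 12155089 in the het libraries. Kctd19 itself stood at 12.8 and 15.6 FPKM in ko testes, against 29.7 and 18.2 FPKM in het testes, and did not pass the test (limma, Benjamini-Hochberg adjusted p = 0.529); as the deleted part is not given, a level over all exons does not check the genotype. Germ cell markers were present in every library (Ddx4, a germ cell RNA helicase, at 74.2 and 74.7 FPKM in ko testes and 118 and 91.1 FPKM in het testes), as were Sertoli markers (Sox9 at 47.9 and 47.5 FPKM in ko testes and 41.7 and 47.5 FPKM in het testes). The 4 pan germ cell markers together overlapped, summing to 508 and 523 FPKM in ko testes and 622 and 507 FPKM in het testes. Their log2 fold changes ran from -0.47 (Ddx4) to 0.10 (Tex101), with 0 called by limma or voom. The libraries also differed in the summed levels of several gene lists. The summed level of 10 pachytene spermatocyte markers, of which Pgk2 was listed at 0 in ko replicate 2, was 102 and 105 FPKM in ko testes and 264 and 145 FPKM in het testes. Of the 8 of these tested, limma on FPKM called 0 and passed 3 as lower without adjustment, at p under 0.05, while voom called 3. The 10 Sertoli markers summed to 2111 and 1806 FPKM in ko testes and 1447 and 1727 FPKM in het testes, with 0 of 10 called by limma or by voom. Interferon response genes (11, chosen with their change known) summed to 168 and 166 FPKM in ko testes and 28.3 and 33.1 FPKM in het testes. The sum of 8 macrophage markers was 162 and 133 FPKM in ko testes and 72.9 FPKM in each het testis. Most of that sum came from C1qa, C1qb and C1qc. The log2 fold changes of the 8 ran from -0.03 (Mrc1) to 1.34 (C1qb), with a median of 0.56. Limma called 1 of the 8, as higher, and voom called 3. Round spermatid markers summed to 42.5 FPKM in ko replicate 1 and to at most 6.66 FPKM in the other libraries. In ko replicate 1 most of that sum came from Prm1 (15.5 FPKM), Tnp1 (12.4 FPKM), Prm2 (5.70 FPKM) and Tnp2 (5.57 FPKM). Spaca1, from the same list, was not raised there, at 2.32 FPKM against 3.68 and 2.58 FPKM in het testes. In whole testes fewer cells of a type and less RNA per cell cannot be told apart.

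None of the deacetylases or corepressor subunits differed between genotypes past the test. With limma on log2(FPKM + 1) over the 17905 genes that averaged 1 FPKM or more, 0 of the 38 members tested were called higher and 0 lower at a Benjamini-Hochberg adjusted p under 0.05, where 0.207% of all genes were called higher and 0.0112% lower. Without adjustment, at p under 0.05, limma passed 0 of the 38, where 9.31% of all genes passed. Voom on whole reads recovered from the FPKM values called 0 of the 38, against 1.39% of all genes, and passed 3 at an unadjusted p under 0.05 (Sirt1, Hmg20b and Hdac6, 7.9% of the members), against 11.0% of all genes. The 2 members outside the test, Hdac9 and Sirt5, had means under 1 FPKM. Of the 38 tested, 19 had a log2 fold change above 0 and 19 below. The median log2 fold change (ko over het) was -0.0012, beside 0.0095 over all genes tested, and the median size of the change regardless of sign was 0.074, beside 0.123.

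The difference between genotype means had a median size of 0.074, close to that between single libraries of a genotype. A mean of 2 libraries varies less than a single library, so these sizes are not like for like. For the members tested the median size of the log2 difference was 0.072 between the 2 ko libraries and 0.074 between the 2 het libraries. The widest was that of Hdac8 in het (0.577), and in ko that of Rbbp7 (0.338). The ko libraries were both above the het libraries for 12 of the 38 (31.6%), where 22.1% of all genes tested did so, and below both for 10 (26.3%), where 19.7% did so. Those shares are descriptions, since the members are not independent of each other. Levels were measured in whole testis, so a difference within 1 cell type is not bounded here. The 95% intervals of the single-gene differences, not adjusted for the number of genes, limit the size of a missed whole-testis difference. All 38 lay between -0.62 and 0.63 on the log2(FPKM + 1) scale, both ends belonging to Hdac8, which stands at about 2 FPKM. For the other 37 members they lay between -0.45 and 0.53. On that scale a difference at a low level such as that of Hdac8 stands for a larger fold in FPKM. With voom, which adds no FPKM, the 38 intervals ran from -0.71 (Sap30) to 0.58 (Hdac8) and reached a 2-fold difference for none of these 38. Hdac9 and Sirt5 have no interval in either fit.

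**Figure D1:**
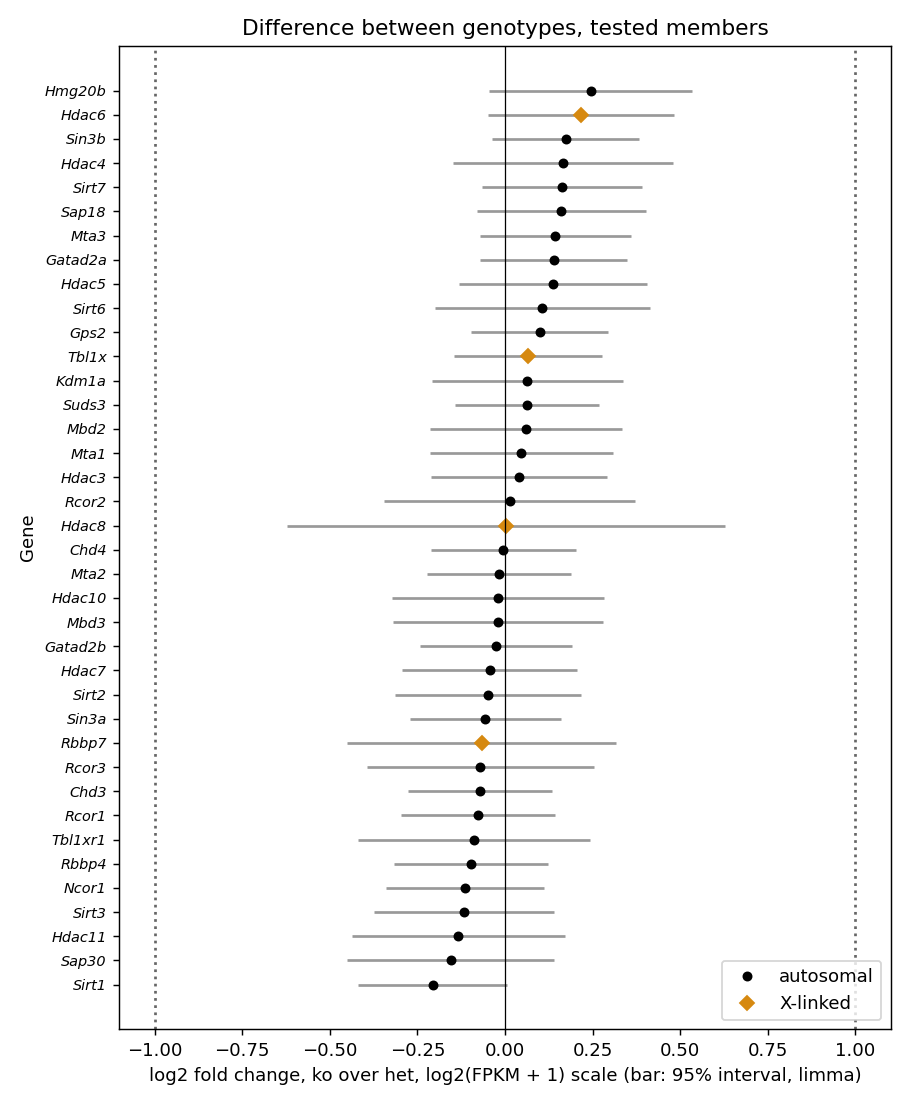
The horizontal axis is the log2 fold change (ko over het, log2(FPKM + 1) scale) of each of the 38 members tested, with its 95% interval from limma as a bar, and dotted lines mark -1 and 1 on this scale, which for low genes is more than 2-fold in FPKM. All bars cross 0 and stay inside the dotted lines, and the 4 X-linked members (diamonds) lie among the autosomal ones.

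The levels of the members differed far more from gene to gene than between genotypes. The mean over the 4 libraries was highest for Rbbp7, a histone-binding WD40 protein of several complexes (98.6 FPKM, above 98.4% of all genes tested), followed by the scaffold Sin3b (64.9 FPKM), the deacetylase Hdac6 (60.7 FPKM), the remodeller Chd4 (58.4 FPKM) and Rbbp4 (51.3 FPKM). At the low end were Hdac4 (3.07 FPKM), Rcor3 (2.64 FPKM), Hdac8 (2.07 FPKM), Hdac9 (0.667 FPKM) and Sirt5 (0.584 FPKM). Rbbp7 stood above Sin3b in every pairing of libraries, and Chd4 above Rbbp4, whereas Sin3b overlapped Hdac6 and Hdac6 overlapped Chd4. Of the 39 pairs of neighbours in this order, 9 had ranges that did not overlap over the 4 libraries and 30 overlapped. The median member stood at 15.1 FPKM, beside 6.63 FPKM for the median gene tested, and 31 of the 40 were above that gene.

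**Figure D2:**
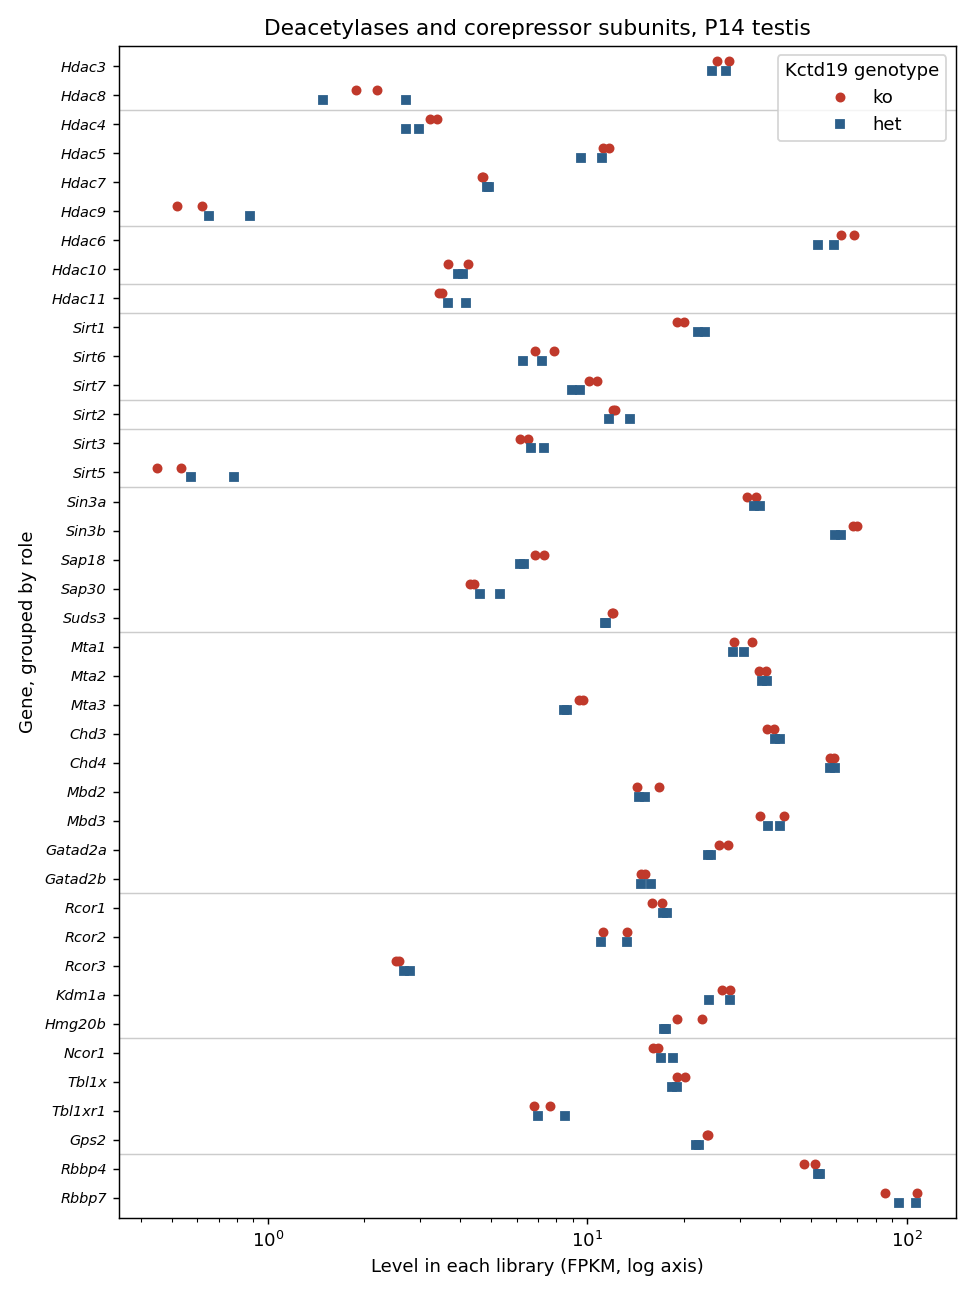
Each row is a gene, grouped by role, and the horizontal log axis gives its level in FPKM in the 2 ko libraries (circles) and the 2 het libraries (squares). Levels run from about 0.5 FPKM for Sirt5 to above 100 FPKM for Rbbp7, and within a gene the genotypes lie close together.

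The promoters of these genes are mostly rich in CpG dinucleotides. Those of the highest member, the highest deacetylase and the lowest of Hdac3 to Hdac11 serve as examples. Windows from RefSeq (GRCm38.p6) were used for 35 of the 40 members, 48 windows in all. The 250 bases before each start are printed 5′ to 3′ on the strand of the gene, with each CpG in capitals, for Rbbp7 (chrX:162760122-162760371, plus strand), Hdac6 (chrX:7947890-7948139, minus strand) and the outermost start of Hdac9 (chr12:34917096-34917345, minus strand).
Rbbp7: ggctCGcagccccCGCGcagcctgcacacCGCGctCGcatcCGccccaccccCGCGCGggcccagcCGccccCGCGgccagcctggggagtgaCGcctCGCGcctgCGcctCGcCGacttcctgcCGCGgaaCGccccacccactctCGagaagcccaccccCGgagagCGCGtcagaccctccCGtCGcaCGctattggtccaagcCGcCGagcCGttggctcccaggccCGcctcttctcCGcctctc
Hdac6: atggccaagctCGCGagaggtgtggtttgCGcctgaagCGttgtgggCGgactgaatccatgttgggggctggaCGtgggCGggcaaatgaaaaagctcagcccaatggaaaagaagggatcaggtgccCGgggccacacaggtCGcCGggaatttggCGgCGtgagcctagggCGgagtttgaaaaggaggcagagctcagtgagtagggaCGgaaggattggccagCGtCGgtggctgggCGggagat
Hdac9: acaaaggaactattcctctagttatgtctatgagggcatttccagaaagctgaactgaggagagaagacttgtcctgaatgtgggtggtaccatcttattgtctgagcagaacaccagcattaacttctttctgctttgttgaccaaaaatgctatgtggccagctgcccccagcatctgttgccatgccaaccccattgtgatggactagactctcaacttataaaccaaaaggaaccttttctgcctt
The Rbbp7 window holds 34 CpG, that of Hdac6 17 and that of Hdac9 0; another listed start of Hdac9 has 2. The median was 18 CpG over the 48 member windows, beside 6 over all 32851 windows of the table. The 48 include overlapping windows of the same gene, such as the 3 of Hmg20b. The 32851 were not limited to genes expressed in these testes. The letters GGGCGG, searched on both strands, occurred in 36 of the 48 (75.0%), beside 32.7% of all windows, and CCAAT in 47.9% beside 33.8%. TATAAA was found in 4 (8.3%), beside 12.4%. The 4 were windows of Hdac8, Hdac9, Mbd3 (38.2 FPKM) and Sin3b (64.9 FPKM). The single Hdac8 window holds 6 CpG and TATAAA, and Hdac8 and Hdac9 are the lowest of Hdac3 to Hdac11. Sirt5, lower than either, has 13, and Rcor3, at 2.64 FPKM, has 39, so the count does not order the members by level.

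**Figure D3:**
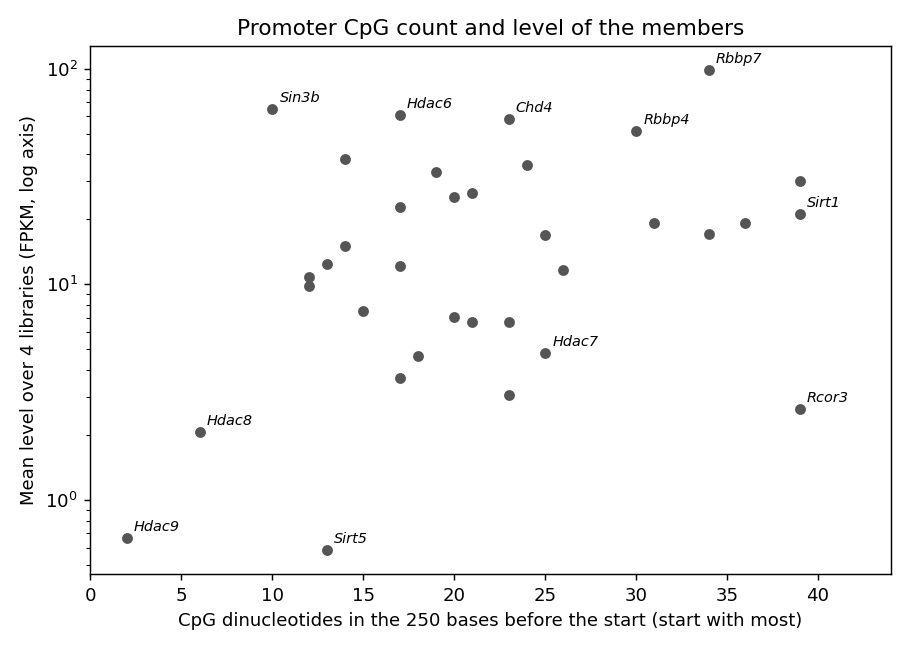
The horizontal axis counts the CpG dinucleotides in the 250 bases before the start (the start with most, where several are listed) and the vertical log axis gives the mean level over the 4 libraries in FPKM, for 35 members. Hdac9 and Hdac8 sit at few CpG and low levels, while Sirt5 and Rcor3 are low at 13 and 39.

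Hdac6 stood at about the summed level of all the other genes from Hdac3 to Hdac11, sirtuins not counted. Hdac6 (chrX:7930120-7947889) is a mainly cytoplasmic enzyme that deacetylates tubulin. It stood at 68.3 and 62.2 FPKM in ko testes, against 52.8 and 59.3 FPKM in het testes. The groups did not overlap, ko being higher, and the log2 fold change was 0.22 (SE 0.10, 95% interval -0.05 to 0.48; limma, Benjamini-Hochberg adjusted p = 0.599). Leaving out het replicate 1 gave 0.14, and leaving out het replicate 2 gave 0.30. As a share of the summed level of Hdac3 to Hdac11, Hdac6 held 54.7% and 52.8% in ko testes and 49.0% and 52.1% in het testes. That sum was 125 and 118 FPKM in ko testes and 108 and 114 FPKM in het testes. Hdac10, the other class IIb enzyme, known as a polyamine deacetylase, stood at 3.67 and 4.22 FPKM in ko testes and at 3.92 and 4.09 FPKM in het testes, with overlapping groups.

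Hdac3 was the main class I enzyme after Hdac1 and Hdac2 are set aside. Its level was 27.7 and 25.5 FPKM in ko testes and 27.2 and 24.5 FPKM in het testes, and the groups overlapped (log2 fold change 0.04, 95% interval -0.21 to 0.29). Hdac8, which deacetylates the cohesin subunit Smc3, stood at 1.88 and 2.20 FPKM in ko testes and 1.48 and 2.70 FPKM in het testes. The het libraries enclose both ko libraries. Hdac8 had 177 and 155 reads in ko and 105 and 159 reads in het, and the widest limma interval of the 38. Hdac3 exceeded Hdac8 by 13.0-fold on average over the libraries.

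The class IIa enzymes, which have weak catalytic activity of their own and bring the NCoR and Hdac3 complex to factors such as Mef2, were expressed at lower levels than Hdac3. Hdac5 led them, with 11.2 and 11.7 FPKM in ko testes and 9.55 and 11.1 FPKM in het testes. Hdac4 (chr1:91928779-92195699) stood at 3.23 and 3.39 FPKM in ko testes, against 2.98 and 2.71 FPKM in het testes, with both ko libraries higher (log2 fold change 0.17, SE 0.12, 95% interval -0.15 to 0.48; limma, Benjamini-Hochberg adjusted p = 0.704). An antisense-strand lincRNA, Gm26720, overlaps 22.4% of the Hdac4 exon length, and whether reads there were counted by strand is not given. Hdac7 was close to the same level in all 4 libraries, with 4.72 and 4.68 FPKM in ko testes and 4.93 and 4.84 FPKM in het testes. Hdac9 was below the threshold of the test, at 0.621 and 0.518 FPKM in ko testes and 0.654 and 0.876 FPKM in het testes. Both ko values of Hdac9 lay below both het values, and its log2 fold change without the filter was -0.17 (limma, Benjamini-Hochberg adjusted p = 0.818). Its FPKM did not convert to whole reads with the annotated exon length, so no reads are given for it.

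Hdac11, the class IV enzyme, which removes fatty acyl groups, stood at 3.50 and 3.44 FPKM in ko testes, against 4.17 and 3.66 FPKM in het testes. Both ko libraries were lower (log2 fold change -0.13, SE 0.12, 95% interval -0.44 to 0.17; limma, Benjamini-Hochberg adjusted p = 0.752). Without het replicate 1 the log2 fold change was -0.058. A transcript of unknown status on the opposite strand, Gm44002, covers 15.4% of its exon length.

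Among the sirtuins, the NAD-dependent deacylases, Sirt1 came closest to the threshold. Sirt1 (chr10:63319005-63381704), a nuclear enzyme that deacetylates p53 and histones, stood at 19.04 and 20.04 FPKM in ko testes, against 23.3 and 22.1 FPKM in het testes. Its groups did not overlap, and its log2 fold change was -0.21 (SE 0.08, 95% interval -0.42 to 0.01; limma, unadjusted p = 0.0544, Benjamini-Hochberg adjusted p = 0.537). Leaving out each library in turn gave -0.24 to -0.17. With voom the log2 fold change was -0.22 and the unadjusted p was 0.0394 (Benjamini-Hochberg adjusted p = 0.417). Sirt1 made up 34.7% and 34.8% of the summed level of the 6 sirtuins in ko testes and 38.5% and 38.6% in het testes. That sum overlapped between genotypes, at 54.9 and 57.6 FPKM in ko testes and 60.5 and 57.4 FPKM in het testes. The summed pachytene markers did not overlap either, ko being lower, and their part in the Sirt1 values was not tested.

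Sirt7, a nucleolar enzyme acting on ribosomal DNA transcription, had the opposite arrangement to Sirt1. It stood at 10.1 and 10.7 FPKM in ko testes and 9.46 and 8.93 FPKM in het testes, with both ko libraries higher (log2 fold change 0.16, SE 0.09, 95% interval -0.07 to 0.39; limma, Benjamini-Hochberg adjusted p = 0.634). Sirt6, which acts in chromatin and DNA repair, overlapped at 6.84 and 7.84 FPKM in ko testes and 6.28 and 7.21 FPKM in het testes. Sirt2, a mainly cytosolic tubulin deacetylase, also overlapped, with 12.2 and 12.1 FPKM in ko testes and 13.6 and 11.7 FPKM in het testes.

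Of the mitochondrial sirtuins, Sirt3, the main mitochondrial deacetylase, stood at 6.16 and 6.53 FPKM in ko testes, against 7.31 and 6.64 FPKM in het testes. Both ko libraries were lower, by a small margin in the case of ko replicate 2 and het replicate 2 (log2 fold change -0.12, SE 0.10, 95% interval -0.37 to 0.14; limma, Benjamini-Hochberg adjusted p = 0.742). Without het replicate 1 the log2 fold change was -0.057. Exons of Psmd13 and Ric8a on the other strand overlap 5.7% and 7.0% of its exon length. Sirt5, which removes succinyl and malonyl groups, was the lowest member, with 63 and 40 reads in ko testes and 51 and 58 reads in het testes (0.532 and 0.451 FPKM in ko, 0.572 and 0.783 FPKM in het). Of its 50-base stretches, 14.2% also occur in transcripts of other genes.

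In the Sin3 complex the scaffold Sin3b was more abundant than its paralog Sin3a. Sin3b stood at 69.7 and 67.9 FPKM in ko testes, against 59.5 and 62.4 FPKM in het testes. The ko libraries of Sin3b were both above the het libraries (log2 fold change 0.17, SE 0.08, 95% interval -0.04 to 0.38; limma, Benjamini-Hochberg adjusted p = 0.592). Sin3a overlapped, at 33.7 and 31.6 FPKM in ko testes and 33.2 and 34.7 FPKM in het testes. The log2 ratio of Sin3a to Sin3b within a library was therefore lower in ko testes (-1.05 and -1.11) than in het testes (-0.84 and -0.85), a difference of -0.23. The exact permutation test gave p = 0.333 for it, the smallest that 2 libraries against 2 allow.

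The smaller Sin3 subunits were less abundant. Sap30, a bridging subunit, stood at 4.28 and 4.43 FPKM in ko testes, against 5.34 and 4.61 FPKM in het testes, with both ko libraries lower (log2 fold change -0.16, SE 0.11, 95% interval -0.45 to 0.14; limma, Benjamini-Hochberg adjusted p = 0.706). It rests on 98 and 76 reads in ko testes and 92 and 66 in het testes, and its log2 fold change was -0.067 without het replicate 1. Sap18, also part of splicing complexes, had 7.33 and 6.84 FPKM in ko testes and 6.32 and 6.14 FPKM in het testes (log2 fold change 0.16). Sap18b shares 13.2% of its 50-base stretches, so the split of reads between these copies is uncertain. Suds3, which stabilises the complex, was at 12.0 and 11.9 FPKM in ko testes and 11.5 and 11.4 FPKM in het testes.

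The 9 NuRD subunits stood close to the same level in both genotypes. Their log2 fold changes ran from -0.07 (Chd3) to 0.14 (Mta3), with 4 above 0 and 5 below and 0 called. The ATPase Chd4, which slides nucleosomes, stood at 57.5 and 59.2 FPKM in ko testes and 57.4 and 59.6 FPKM in het testes. Its log2 fold change was -0.0045 (SE 0.08, 95% interval -0.21 to 0.20). The other ATPase, Chd3, had 36.5 and 38.3 FPKM in ko testes and 40.02 and 38.7 FPKM in het testes. Of the Mta scaffolds, which hold the deacetylases, Mta2 was at 36.2 and 34.5 FPKM in ko testes and 35.2 and 36.4 FPKM in het testes. Mta1 was at 28.8 and 32.7 FPKM in ko testes and 30.9 and 28.6 FPKM in het testes. Mta3, the least abundant of the 3, had 9.67 and 9.43 FPKM in ko testes and 8.63 and 8.46 FPKM in het testes, with both ko libraries higher (log2 fold change 0.14, 95% interval -0.07 to 0.36).

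The methyl-CpG-binding-domain proteins Mbd2 and Mbd3 define alternative forms of NuRD, of which only the Mbd2 protein binds methylated DNA strongly. Mbd3 was the more abundant, at 41.1 and 34.8 FPKM in ko testes and 40.2 and 36.6 FPKM in het testes, where Mbd2 had 16.7 and 14.3 FPKM in ko testes and 14.5 and 15.1 FPKM in het testes. Gatad2a and Gatad2b link the Mbd proteins to the ATPase. Gatad2a stood at 27.5 and 25.8 FPKM in ko testes and 23.8 and 24.4 FPKM in het testes, both ko libraries being higher (log2 fold change 0.14, 95% interval -0.07 to 0.35), and Gatad2b at 14.7 and 15.2 FPKM in ko testes and 14.7 and 15.8 FPKM in het testes.

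In the CoREST complex, Hmg20b had the highest log2 fold change of all members. Hmg20b (chr10:81346048-81350480), an HMG-box subunit, stood at 22.9 and 19.1 FPKM in ko testes, against 17.6 and 17.4 FPKM in het testes. Both ko libraries were higher (log2 fold change 0.24, SE 0.11, 95% interval -0.05 to 0.53; limma, Benjamini-Hochberg adjusted p = 0.584). The ko libraries differed from each other by as much as from the het libraries, and the log2 fold change was 0.12 without ko replicate 1 and 0.37 without ko replicate 2. Ko replicate 1 is also the library with the high sum of round spermatid markers, mostly Prm1, Prm2, Tnp1 and Tnp2, whose part in this value was not tested. Kdm1a, the demethylase of histone H3 lysine 4 in the complex, was at 27.9 and 26.5 FPKM in ko testes and 28.0 and 24.0 FPKM in het testes. Among the scaffolds, Rcor1 stood at 17.2 and 15.9 FPKM in ko testes and 17.7 and 17.2 FPKM in het testes. Rcor2 ranged from 11.0 to 13.3 FPKM with overlapping groups, and Rcor3 was at 2.57 and 2.52 FPKM in ko testes and 2.66 and 2.79 FPKM in het testes.

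Of the 4 NCoR subunits besides Hdac3, 2 had a log2 fold change above 0 and 2 below, and 0 were called. The scaffold Ncor1 stood at 16.1 and 16.6 FPKM in ko testes, against 16.99 and 18.6 FPKM in het testes, with both ko libraries lower (log2 fold change -0.11, SE 0.09, 95% interval -0.34 to 0.11; limma, Benjamini-Hochberg adjusted p = 0.718). Without het replicate 2 its log2 fold change was -0.054. Gps2, a small subunit that inhibits Jnk signalling, was at 23.6 and 23.8 FPKM in ko testes and 22.3 and 21.9 FPKM in het testes (log2 fold change 0.10, 95% interval -0.10 to 0.29). Of the WD40 subunits, Tbl1x had 20.2 and 19.1 FPKM in ko testes and 18.4 and 19.0 FPKM in het testes. Tbl1xr1 overlapped, at 6.78 and 7.66 FPKM in ko testes and 8.502 and 7.01 FPKM in het testes.

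Rbbp4 and Rbbp7 are paralogous histone chaperones found in Sin3, NuRD and other complexes. Rbbp7 varied between animals of each genotype, at 108 and 85.2 FPKM in ko testes and 107 and 94.7 FPKM in het testes (log2 fold change -0.07, 95% interval -0.45 to 0.32). Rbbp4 stood at 51.6 and 47.5 FPKM in ko testes and 53.5 and 52.5 FPKM in het testes, both ko libraries being lower (log2 fold change -0.10, 95% interval -0.32 to 0.12). Exons of Sync and of the lincRNA Gm26722 overlap 8.9% and 9.1% of the Rbbp4 exon length. Another annotated gene, Gm6382, shares 7.0% of the 50-base stretches of Rbbp7.

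Members on the X chromosome, which is silenced in pachytene spermatocytes, numbered 4. Their log2 fold changes were 0.22 (Hdac6), 0.07 (Tbl1x), 0.0020 (Hdac8) and -0.07 (Rbbp7), with 0 of 4 called. The 36 autosomal members, 34 of them tested, had a median of -0.01, beside 0.03 for the X-linked ones.

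The balance between related members was set within each library, where scaling between libraries has no effect. Over 16 pairs the ko minus het difference in log2 ratio ran from -0.34 (Sirt1 to Sirt6) to 0.32 (Sirt3 to Sirt5). The Sirt3 to Sirt5 value was 0.019 without het replicate 2, 0.61 without het replicate 1 and 0.049 with 1 FPKM added to each gene, and the Sirt1 to Sirt6 value ran from -0.475 to -0.201 with each library left out. The groups overlapped in 10 pairs and not in 6. Of single genes tested, 22.1% had both ko libraries above both het libraries and 19.7% had both below. A share over other pairs was not taken, so the 6 are a description. The exact permutation test gave a Benjamini-Hochberg adjusted p of 0.888 at the least, in a design that allows no unadjusted p below 0.333. The Sirt1 to Sirt6 log2 ratio was 1.48 and 1.35 in ko testes and 1.89 and 1.62 in het testes, so Sirt1 was the more abundant in all 4 libraries. The Hdac4 to Hdac7 log2 ratio was -0.55 and -0.47 in ko testes, against -0.73 and -0.84 in het testes. Across both genotypes Gatad2a exceeded Gatad2b 1.68-fold, Tbl1x exceeded Tbl1xr1 2.57-fold, Mta1 exceeded Mta3 3.34-fold and Rcor1 exceeded Rcor3 6.45-fold.

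**Figure D4:**
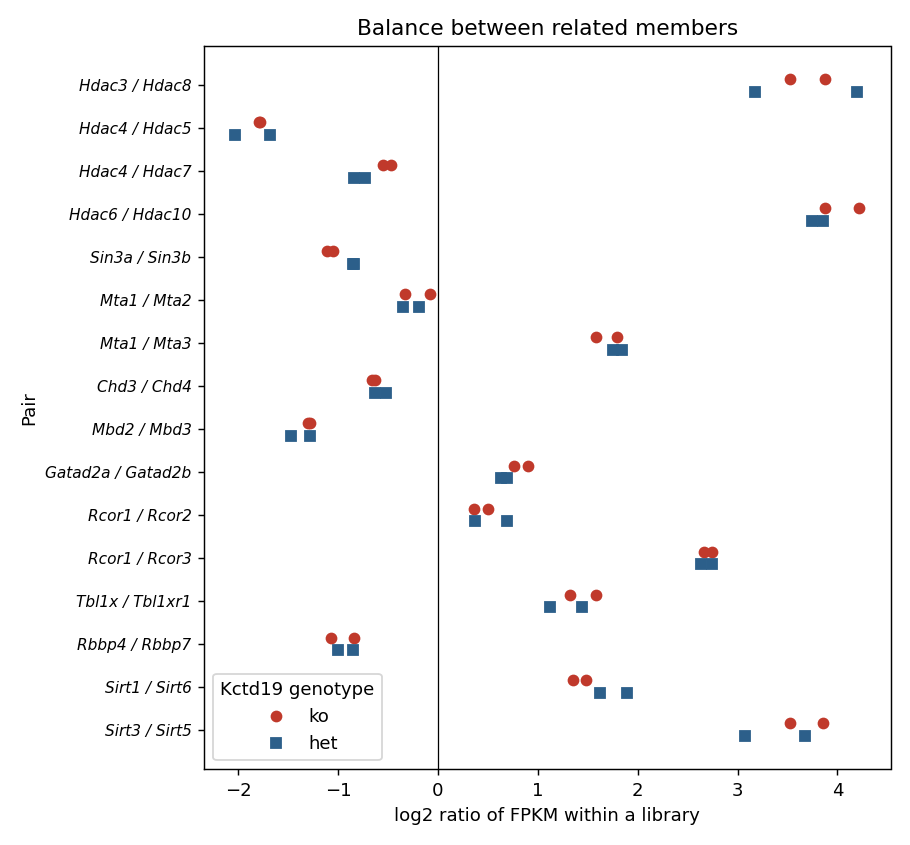
The horizontal axis is the log2 ratio of FPKM of 2 related members within a library, for the 2 ko libraries (circles) and the 2 het libraries (squares). The ratio of Sin3a to Sin3b lies between -1.11 and -0.84, and the order of the paralogs is the same in all 4 libraries for every pair shown.

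Other genes of these complexes were read from the same fit. In a list of 30 further subunits and associated factors, all tested, limma and voom called 0 in either direction, and at an unadjusted p under 0.05 limma passed 1 gene, higher in ko. It was Sap25, a Sin3-associated protein, with 14.1 and 13.0 FPKM in ko testes against 11.6 and 10.3 FPKM in het testes (log2 fold change 0.29, SE 0.10; limma, Benjamini-Hochberg adjusted p = 0.516). The list had a median log2 fold change of 0.06 and a range of -0.18 to 0.29, beside the median of 0.0095 over all genes. On the opposing side of the pathway, 14 acetyltransferases and bromodomain readers had 0 called by limma or voom and 0 at an unadjusted p under 0.05 by limma, with a median of -0.02 and a range of -0.32 to 0.18.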

How the data were processed

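The authors deposited FPKM, per the file headers, with a single value for each symbol in each of the 4 libraries. The submitters' processing notes list GRCm38, STAR 2.6.1a, CASAVA 1.9, featureCounts and edgeR, without saying what each did; which annotation release was counted, and whether by strand, is not given in the sources used here. Symbols were matched to GENCODE M21 (GRCm38) for position and exon length (96.0% of rows). FPKM times exon length moved in steps of 1 read: 99.2% to 99.3% of values up to 20 reads were whole within 0.02, as were 156 of the 160 values of the members, the exceptions being those of Hdac9.

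Genes averaging 1 FPKM or more were fitted by genotype on log2(FPKM + 1) in limma 3.58.1 (R 4.3.3) with an intensity trend, and p-values were adjusted over all of them by the Benjamini-Hochberg method; a fold change on this scale understates the change of low genes. The code was tested on simulated data. Voom was run on the recovered reads. The labels call the replicates biological; nothing in them ties same-numbered replicates together. Paralog ratios were tested by a two-sided exact permutation test. Members with complete statistics are those with the largest log2 fold change, 5 in each direction, whose ko libraries lay on 1 side of both het libraries. Members and lists were chosen with earlier results of these data known. Alternatives were a pseudocount of 0.1, no filter, a replicate block, each library left out, voom, median-of-ratios scaling and quantile normalization. A 50-base length was used to look for stretches shared between transcripts (either strand).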

Additional observations from a re-analysis of the deposited data

How the results depend on the processing

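The count of 0 members called was the same in every alternative fitted to all 4 libraries. It was also 0 for the further subunits and for the acetyltransferases and readers. The smallest limma or voom Benjamini-Hochberg adjusted p among members ranged from 0.417 to 0.686 in these fits. Without the filter 0 genes were called over the whole table, so 0 members was the only possible count. The other settings called 15 to 243 genes over the whole table, so a count of 0 members carries little weight. The number of genes called over the whole table was less stable. It was 37 higher and 2 lower with limma, 0 and 0 without the filter, and 135 and 108 with voom. Fits with a library left out keep 1 library in a group and are read for effect size only. With the replicate number as a block it was 15 and 0; the same-numbered libraries did not deviate together (correlation of their deviations -0.03 across genes). The members' median log2 fold change was 0.013 with voom and -0.008 to 0.026 with a library left out. All 10 members with complete statistics kept their direction in every alternative. They were picked for having both ko libraries on 1 side of both het libraries. Only voom, median-of-ratios scaling and quantile normalization could therefore have turned a direction. Ratio differences near 0 turned with a library left out: Hdac3 to Hdac8 ranged from -0.492 to 0.529, Hdac4 to Hdac5 from -0.105 to 0.244, Mta1 to Mta2 from -0.059 to 0.191, Mbd2 to Mbd3 from -0.013 to 0.181, Rcor1 to Rcor2 from -0.255 to 0.063, Rcor1 to Rcor3 from -0.039 to 0.070 and Rbbp4 to Rbbp7 from -0.142 to 0.080. Rcor1 to Rcor3 was also -0.006 with 1 FPKM added. The causes were not tested. Reads per member and library ran from 40 to 9955, and relative counting error is larger where reads are fewer.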
